A study of Oryza sativa with 36 samples.

Results

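In leaves of chilled rice seedlings, 134 of 57258 probe sets (0.234%) moved in opposite directions in 2 genotypes after 48 h at 4 °C, with a rise in the tolerant genotype LTH and a fall in the sensitive genotype IR29. They were chosen by those values: intensities under 16 were set to 16, log2 was taken, the 3 arrays of a group were averaged, and the control mean of the same genotype was subtracted. A probe set was kept when the change at 48 h was at least 1 in LTH and -1 or lower in IR29, that is, a rise and a fall of at least 2-fold. The mirror pattern, lower in LTH and higher in IR29, held 59 probe sets. A probe set is the group of short probes on the Affymetrix rice array that reads 1 transcript.

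LTH (Li-Jiang-Xin-Tuan-Hei-Gu) is a japonica landrace that tolerates chilling, and IR29 is an indica cultivar that does not. Seedlings of both, 8 to 10 days old, were grown at 29 °C and moved to 4 °C with 12 h of light and 12 h of darkness a day. Leaves were taken from control plants, after 2, 8, 24 and 48 h at 4 °C, and after 48 h at 4 °C followed by 24 h back at 29 °C (recovery), with 3 biological replicates in each of the 12 groups and 1 array per replicate. No transgene or mutation is involved, so the groups differ by genotype and treatment, and 1 line stands for each response type. The labels give 1 control group per genotype, so for transcripts that follow the time of day the hour of sampling and the treatment cannot be told apart.

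Rice comes from warm climates, and its seedlings are injured by temperatures that many temperate cereals withstand. At low temperature membranes stiffen, photosynthesis and phloem transport slow while light is still absorbed, and reactive oxygen species accumulate in chloroplasts and mitochondria. Plants answer through calcium signals, protein kinases, abscisic acid and transcription factors such as the AP2/ERF, NAC and homeodomain families, and through enzymes of redox balance, amino acid metabolism and transport. After rewarming, tolerant plants resume growth, whereas sensitive plants often show their injury only then.

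Array medians lay between 9.81 and 11.16 over the 36 arrays. Arrays of 1 group correlated at 0.839 to 0.988, and the highest correlation between groups was 0.976. For 7 arrays the nearest array belonged to another group of the same genotype. The clearest case was a pair: LTH 8 h replicate 3 and LTH 24 h replicate 2 correlated at 0.967 with each other, and at no more than 0.913 and 0.856 with arrays of their own groups. Counts that rest on these 2 arrays are given below with and without them. In the 2 groups at 48 h that the rule used, LTH replicate 3, IR29 replicate 1 and IR29 replicate 2 were also nearest to a 24 h array of their genotype. The rule would give 114 members without IR29 48 h replicate 1 and 185 without IR29 48 h replicate 2. Of the 11 probe sets for mesophyll genes (RBCS and light-harvesting or photosystem proteins), 10 rose above 16 on at least 1 array, as did 3 of the 9 endosperm probe sets. All 3 root probe sets and 5 of the 6 for the shoot meristem did so too, so these counts cannot check the leaf label. Of all probe sets, 38.4% stayed at or under 16 on all 36 arrays. None of the 134 members belongs to a marker list.

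The members' median log2 change at 48 h was a rise of 1.38 for LTH and a change of -1.47 for IR29. The member median rose in LTH from 77.6, 85.8 and 73.6 on the control arrays to 289.7, 262 and 210.1 on the 48 h arrays. In IR29 it fell from 131, 135 and 153 to 36.9, 68.0 and 36.3. The groups did not overlap in either genotype. Control and 48 h arrays did not overlap for 131 members in LTH (23.4% of all probe sets rose without overlap) and for 113 in IR29 (23.1% of all probe sets fell without overlap). Both held for 111 members (1.63% of all probe sets), and since these values chose the members, nothing is read from the counts.

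**Figure D1:**
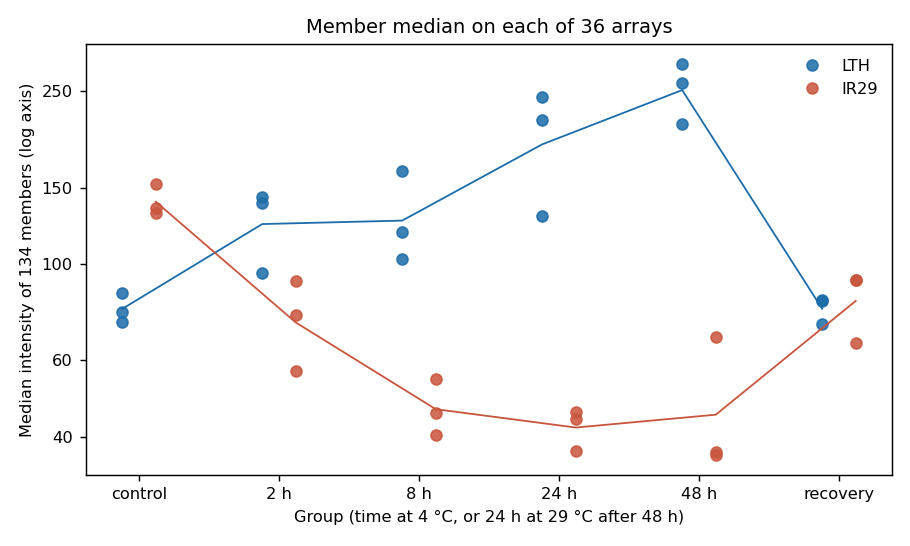
Median intensity over the 134 members on each of the 36 arrays (log axis), by group, with 1 point per array and lines through the geometric means. LTH lies between 73.6 and 85.8 in the control and between 210.1 and 289.7 at 48 h, IR29 between 131 and 153 in the control and between 36.3 and 68.0 at 48 h.

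Many members passed the limit narrowly. The lesser of the LTH rise and the IR29 fall was under 1.1 for 42 members, at least 1.5 for 25 and at least 2 for 4, and a further 42 probe sets missed the limit with a lesser change between 0.9 and 1. Just inside were a probe set with no gene (1.001 in LTH and -1.24 in IR29) and those for LOC4342085 (1.62 and -1.002) and the ACT domain gene LOC_Os03g40100 (1.197 and -1.003). Just outside were those for LOC4339432 (0.9985 and -1.55) and LOC4327653 (3.82 and -0.998) and another with no gene (0.9977 and -1.13). In IR29, 10 members were below 16 on all 3 arrays at 48 h, so their falls are lower bounds. In LTH, 2 members were below 16 on all control arrays.

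The control levels of the members were lower in LTH. The rule subtracts these same control arrays, so it favours low LTH and high IR29 controls, and nothing is read from the following values. The median control difference, LTH minus IR29, was -0.66 over the members and 0.00 over all probe sets. In the controls 44 members were lower in LTH by at least 1 (2.66% of all probe sets), 2 were higher (3.71%) and 88 lay within 1. The array was designed mostly on japonica sequence, and the part of sequence differences under the probes in these level differences was not tested. A constant offset of this kind cancels in changes within a genotype only where no intensity was raised to the lower limit. On all IR29 arrays at 48 h, 10 members lay under that limit, and 2 did so on all LTH control arrays. Other members lay under it in groups outside the rule, such as OsAPRL1 and LOC_Os08g08850 on all IR29 arrays at 24 h. For any member under the limit in a compared group, the changes, and the differences between them, can depend on such an offset. Its part was not tested.

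Of the members, 81 carry 1 gene of the reference annotation (76 distinct genes), 1 carries several and 52 carry none. The fold values of the study's gene tables tied 36 members to a locus with a description, and 39 members have neither. Of these 81 probe sets 10 lay on chromosome 12 (12.3%, against 5.1% of all probe sets with 1 gene), and they stand for 8 of the 76 genes. Probe sets named OsAffx, the series of the array built on predicted genes, made up 14.9% of the members and 44.5% of the array. Of all probe sets, 38.4% lay under 16 on all 36 arrays.

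The rise in LTH and the fall in IR29 passed 2-fold at different times for most members. At 2 h, 44 members stood at least 1 above control in LTH (5.35% of all probe sets) and 57 at least 1 below control in IR29 (7.94%). At 8 h the counts were 40 in LTH (5.71%) and 108 in IR29 (6.07%), and at 24 h 81 (6.63%) and 113 (8.76%). The IR29 fall was thus near its full extent at 8 h, with medians of -0.81, -1.50, -1.53 and -1.47 at 2, 8, 24 and 48 h, whereas the LTH medians were 0.65, 0.59, 1.15 and 1.38. The fall in IR29 passed 1 at an earlier time than the rise in LTH for 76 members, at the same time for 21 and later for 37. These changes share their control arrays with the rule and are given without a test. At 48 h all 134 members are past 1 by the rule (8.27% of all probe sets in LTH and 10.3% in IR29).

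**Figure D2:**
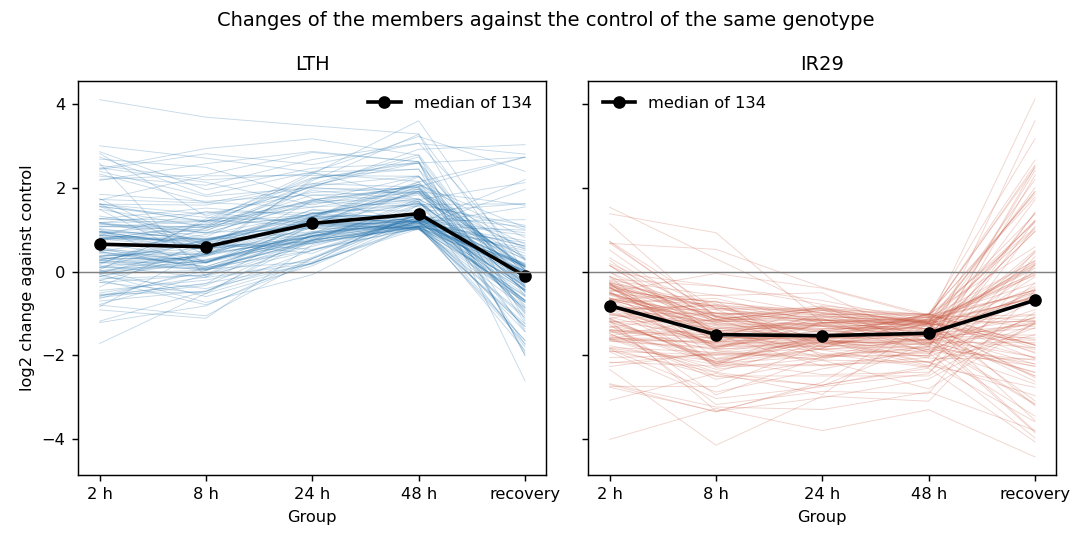
Log2 change against control for the 134 members at each time in LTH and IR29, with 1 thin line per member and the median in black. The LTH medians are 0.65, 0.59, 1.15 and 1.38 at 2, 8, 24 and 48 h and -0.11 in recovery, and the IR29 medians are -0.81, -1.50, -1.53, -1.47 and -0.68.

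The 24 arrays of the other 8 groups (2, 8 and 24 h and recovery) took no part in the choice of the members, and tests were made on these alone. Differences were fitted with limma over all 57258 probe sets, and a probe set was called at a Benjamini-Hochberg adjusted p below 0.05 and at least a 2-fold difference. The first question was whether the genotypes already moved apart between 2 and 24 h. In LTH 18 members were higher at 24 h than at 2 h (1.47% of all probe sets) and 0 were lower by limma (1.83%), with 49 higher and 2 lower at an unadjusted p below 0.05. In IR29, 10 members were lower (0.941%) and 1 was higher (1.16%).

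The change from 2 to 24 h was itself higher in LTH than in IR29 for 12 members (0.461% of all probe sets) and lower for 0 by limma (0.32%), with 81 and 0 at an unadjusted p below 0.05. The median of this difference was 1.26 over the members and 0.00 over all probe sets, and it was above 0 for 132 of 134. Counts at an unadjusted p, here and for LTH above, and counts above 0 were made for the members alone, so no share stands beside them. The number of members with a higher 2 h to 24 h change in LTH than IR29 turned on single arrays. It was 5 without IR29 2 h replicate 2, 6 without LTH 2 h replicate 3, LTH 24 h replicate 1, LTH 24 h replicate 3 or IR29 24 h replicate 2, and 7 without IR29 24 h replicate 1. It was 22 without IR29 2 h replicate 1, 30 without LTH 24 h replicate 2 and 44 without both LTH arrays of the pair described above, where the members higher at 24 h than 2 h in LTH numbered 29. The number of members lower at 24 h than 2 h in IR29 was 24 without IR29 2 h replicate 1, 3 without IR29 2 h replicate 3, and 5 and 6 without IR29 24 h replicates 1 and 2. Shares over all probe sets without these arrays are not given here, so nothing about the members is read from these shifts.

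At each chilling time the levels of the genotypes stood apart. LTH was higher than IR29 for 53 members at 2 h (4.31% of all probe sets), 80 at 8 h (4.34%) and 106 at 24 h (5.34%). It was lower for 8 (2.44%), 5 (2.74%) and 2 (3.56%). The median difference grew from 0.81 at 2 h to 1.4 at 8 h and 2.03 at 24 h, and 51 members were called higher in LTH at all of these times. In recovery 20 members were higher in LTH (7.15%) and 27 lower (4.68%), with a median of -0.37. Without LTH 8 h replicate 3 and LTH 24 h replicate 2, the members higher in LTH than IR29 at 8 h numbered 79 and the members higher in LTH than IR29 at 24 h numbered 111. Of the members higher in LTH at 24 h, 20 were called lower in LTH in recovery, a combination held by 223 of all probe sets (0.389%). A further 16 were still called higher. For the 51 and the 16 members no share over all probe sets was computed, so nothing is read from these counts.

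**Figure D3:**
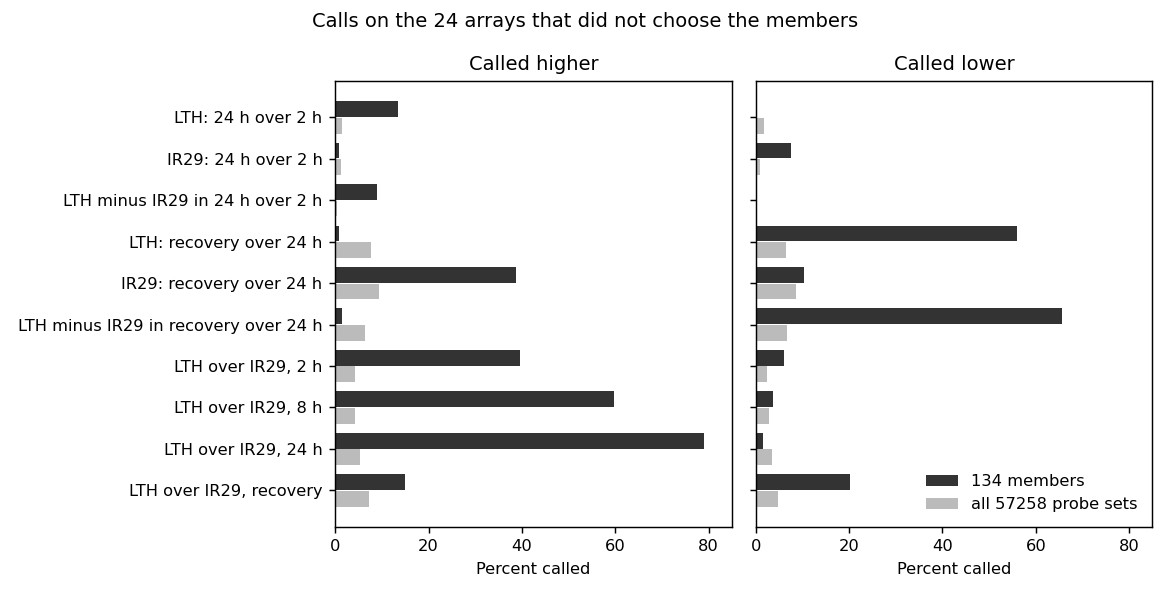
Percent called higher (left) and lower (right) in each limma comparison of arrays outside the rule, for the 134 members (dark bars) and all 57258 probe sets (light bars). At 24 h 79.1% of the members and 5.34% of all probe sets are called higher in LTH than in IR29, in recovery 14.9% and 7.15%.

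From 24 h of chilling to recovery the member medians moved down in LTH and up in IR29. Both moves were called for 14 members (0.232% of all probe sets). These comparisons also take in the chilling from 24 to 48 h, so they do not measure rewarming alone. In LTH 75 members were lower in recovery than at 24 h of chilling (6.45% of all probe sets) and 1 was higher (7.72%), with a median of -1.25. The single riser was tied to LOC_Os01g61070, a protein with a heavy-metal-associated domain (log2 difference 1.21). In IR29, 52 members were higher (9.4%) and 14 were lower (8.63%), with a median of 0.59. The change differed between the genotypes for 90 members: it was lower in LTH for 88 (6.67%) and higher for 2 (6.4%), with a median of -2.14 and 124 of 134 below 0. Without the LTH arrays that resembled each other, the members lower in recovery than at 24 h in LTH numbered 81 and the members with a lower 24 h to recovery change in LTH than IR29 numbered 97.

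The 14 members with both calls apart, the LTH fall was called without a call in IR29 for 50, the IR29 rise without a call in LTH for 38, a fall in both genotypes for 11, a fall in IR29 alone for 3, a rise in LTH for 1 and no call in either for 17. These further classes were not counted over all probe sets, so nothing is read from their sizes. Against control, 95 members were within 1 in LTH after recovery, 18 still stood at least 1 above (1.43% of all probe sets) and 21 at least 1 below (2.89%). In IR29 only 45 were within 1, 64 were still at least 1 below (8.77%) and 25 stood at least 1 above (5.68%).

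**Figure D4:**
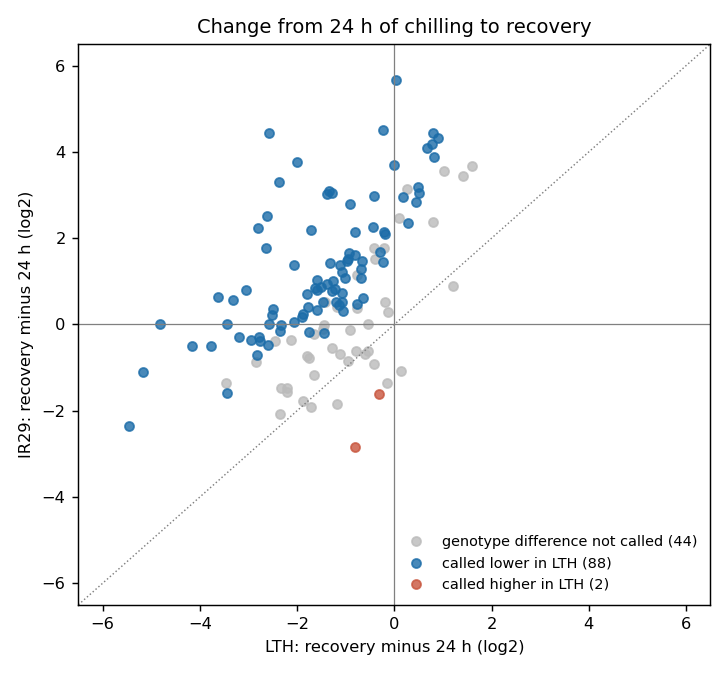
Log2 difference between recovery and 24 h of chilling in LTH (horizontal axis) and IR29 (vertical axis) for the 134 members, 1 point each, coloured by the limma call of the difference between the genotypes, with a dotted line of equal change. The 88 members called lower in LTH lie above that line and the 2 called higher below it.

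Marker genes moved over the same groups. The mesophyll sum fell from 27116 to 27939 in the LTH control to 11789 to 12358 at 48 h and was 26145 to 28361 in recovery, whereas in IR29 it fell from 28050.0 to 29521 in the control to 9872 to 18934 at 48 h and was 7368 to 9983 in recovery. Its genes differed. A CAB2R probe set had means of 4270 in the control and 226 at 48 h in LTH, and 4791 and 1144 in IR29. An RBCS probe set had 3993 and 3704 in LTH, and 4141 and 3117 in IR29. The sum of 5 probe sets for the chlorophyll-breakdown genes SGR, NYC1 and NOL rose from 858 to 1014 in the LTH control to 3178 to 4935 at 48 h. This was a rise of SGR and NYC1 alone, since the NOL means went from 351 and 115 in the control to 267 and 107. In IR29 the sum was 1122 to 1313 in the control, 1514 to 1566 at 48 h and 3139 to 3785 in recovery. The NOL means there were 336.5 and 107 in the control, 381 and 162 at 48 h and 189 and 46.4 in recovery. The 10 clock probe sets summed to 4617 to 5572 in LTH recovery and 2729 to 3502 in IR29 recovery, against 7635 to 8108 and 8605 to 10195 in the controls. The 3 root probe sets summed in IR29 to 260 to 418 in the control, 47.15 to 983 at 8 h and 47.7 to 69.4 at 24 h. At 48 h their IR29 sum was 52.8 to 578 with a median of 57.5, and in recovery 28.8 to 33.4. In LTH their sum was 236 to 429 in the control, 130 to 170 at 8 h, 75.9 to 341.5 at 24 h, 77.9 to 144 at 48 h and 198 to 927 in recovery. The 6 shoot meristem probe sets, of which 5 rose above 16 on at least 1 array, summed to 347 to 396 on the IR29 8 h arrays, against 39.1 to 68.9 in the IR29 control and 63.3 to 119.9 at 24 h. In LTH the shoot meristem sum was 73.3 to 162 in the control, 37.97 to 265.6 at 8 h and 20.1 to 376.7 at 24 h. The 9 endosperm probe sets summed to 103 to 125 in IR29 recovery and 211 to 264 in its control, and to 154 to 192 in LTH recovery and 177 to 197 in its control. Most of this sum came from 1 GLUA2 probe set, with means of 74.5 and 163.9 in IR29 recovery and control and 123.8 and 128.3 in LTH. The part of these movements in the members' changes was not tested, and in whole leaves fewer cells of a type and less RNA per cell cannot be told apart.

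Among the signalling genes, SAPK1 encodes a kinase of the SnRK2 family, whose rice members are switched on by hyperosmotic stress. In LTH its intensities were 179, 264 and 245 in the control, 334, 463 and 438 at 2 h, 592, 349 and 493 at 24 h, 630.4, 552 and 423 at 48 h and 367, 372 and 302 in recovery. In IR29 they were 239, 228 and 289 in the control, 142, 173 and 118 at 2 h, 115, 86.2 and 105 at 24 h, 92.1, 93.2 and 79.5 at 48 h and 442, 469 and 551 in recovery. LTH was above IR29 on every array at 2 and 24 h, and every IR29 recovery array was above every other IR29 array listed. The level in LTH exceeded that in IR29 at 2 h by a log2 difference of 1.51 (SE 0.23, limma adjusted p = 0.00014) and at 24 h by 2.20 (SE 0.23, limma adjusted p = 1.7e-06). The 24 h to recovery change was lower in LTH than in IR29, with a difference of -2.69 (SE 0.32, limma adjusted p = 9.6e-06). Of the 10 SAPK genes on the array it was the only member: at 48 h SAPK2 had changed by 2.04 (LTH) and 2.21 (IR29), and SAPK7 by -2.71 and -1.96.

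NAC proteins are plant transcription factors, many of them responsive to stress and senescence. The member tied to the NAC gene Os03g0327800 went in LTH from 118, 140.2 and 157 in the control to 406, 231 and 417 at 24 h and 571, 509.8 and 469 at 48 h, and stood at 439, 397 and 396 in recovery. In IR29 it went from 144, 159 and 141 to 16.2, 62.2 and 66.01 at 24 h and 32.9, 19.1 and 46.9 at 48 h, and to 208, 169 and 249 in recovery. All arrays of LTH lay above all of IR29 at 24 h, 48 h and recovery. The difference at 24 h was 3.06 (SE 0.44, limma adjusted p = 6.3e-05) and the IR29 rise from 24 h to recovery was 2.35 (SE 0.44, limma adjusted p = 0.00036). It was the only member among the 84 annotated probe sets of the transcription factor list, which matched words in the tied descriptions and took in no AP2 gene of the members.

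An AP2 domain gene, of the family that includes the DREB factors of cold and drought responses, was a member (Os01g0752500). Its LTH intensities were 1204, 1093 and 949 in the control, 1833, 2892 and 2359 at 8 h and 2272, 2927 and 3205 at 48 h. In IR29 they were 1375, 1048 and 1592 in the control, 100.3, 239.8 and 211 at 8 h and 188, 1265 and 429.9 at 48 h, so 1 IR29 array at 48 h lay within the range of its control. LTH exceeded IR29 at 8 h by 3.76 (SE 0.59, limma adjusted p = 0.0002) and at 24 h by 3.03 (SE 0.59, limma adjusted p = 0.0012).

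DI19-6 belongs to the drought-induced zinc finger family. It rose in LTH from 48.3, 79.3 and 57.3 at 2 h to 176, 104 and 141 at 24 h, a difference of 1.19 (SE 0.23, limma adjusted p = 0.0032), and fell to 26.1, 34.7 and 22.7 in recovery, by a difference of -2.32 (SE 0.23, limma adjusted p = 5.6e-07). In IR29 it was 189, 152 and 245 in the control, 25.4, 92.7 and 34.05 at 48 h and 7.98, 13.7 and 15.8 in recovery, with all recovery arrays below 16. Its 8 family probe sets held 5 that rose by at least 1 at 48 h in LTH and 2 that did so in IR29.

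HOX24, a homeodomain leucine zipper factor, varied widely between arrays. In LTH it was 19.3, 25.6 and 20.6 in the control and 93.8, 391 and 157 at 48 h. In IR29 it was 84.6, 62.8 and 48.5 in the control, 15.7, 42.5 and 29.9 at 24 h, 18.1, 7.57 and 75.8 at 48 h and 278, 175 and 282 in recovery. IR29 control and 48 h arrays overlapped, whereas 24 h and recovery did not. The IR29 difference between recovery and 24 h was 3.13 (SE 0.94, limma adjusted p = 0.017), with adjusted p of 0.075, 0.052 and 0.053 by limma without IR29 24 h replicate 1, IR29 recovery replicate 1 or IR29 recovery replicate 3. Among 34 probe sets for HOX genes it was the only member.

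The type 2C phosphatase gene OsPP2C48, of a family that includes the brakes on abscisic acid signalling, stood at 181, 273 and 213 in the LTH control, 363, 638 and 401 at 48 h and 162, 233 and 148 in recovery. The IR29 values were 467, 485 and 612 in the control, 176, 337 and 217 at 48 h and 471, 552 and 441 in recovery. The 2 recovery groups did not overlap. The 24 h to recovery change was lower in LTH, with a difference of -2.08 (SE 0.45, limma adjusted p = 0.0027). Of 72 PP2C probe sets, 26 rose by at least 1 in LTH at 48 h and 21 in IR29, and 1 was a member.

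Sigma factors direct the plastid's bacterial-type RNA polymerase to its promoters, and a protein of the sigma-70 region 4 family (LOC4339759, LOC_Os05g50930) was a member through both of its probe sets. The brighter one read 471, 826 and 697 in the LTH control, 1799.8, 2898 and 2379.9 at 2 h, 2085, 1944 and 2961 at 24 h, 2007, 2292 and 1924 at 48 h and 278, 217 and 264 in recovery. In IR29 it read 842, 847 and 1102 in the control, 722, 1204 and 1787 at 2 h, 359, 430.1 and 557 at 24 h, 231, 672 and 219.9 at 48 h and 342, 337 and 406 in recovery. The LTH level was thus high from 2 to 48 h and below control on all recovery arrays, while IR29 stayed below its control in recovery. The LTH fall from 24 h to recovery was -3.19 (SE 0.30, limma adjusted p = 3.4e-07), and the change was lower in LTH than in IR29, with a difference of -2.89 (SE 0.43, limma adjusted p = 8.4e-05). The dimmer one gave -3.77 (SE 0.43, limma adjusted p = 2.5e-06) and -3.25 (SE 0.60, limma adjusted p = 0.00071).

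SDH2-1 encodes the iron-sulfur subunit of succinate dehydrogenase, the enzyme that links the citric acid cycle to mitochondrial respiration. It read 114, 94.4 and 59.8 in the LTH control and 318, 304 and 244 at 48 h. In IR29 it read 21.3, 23.7 and 48.02 at 24 h, 26.2, 98.2 and 39.5 at 48 h and 245, 204 and 234 in recovery. All IR29 recovery arrays were above its control arrays (97.6, 91.8 and 115). The rise from 24 h to recovery in IR29 was 2.97 (SE 0.45, limma adjusted p = 4.3e-05), and the change was lower in LTH, with a difference of -3.39 (SE 0.64, limma adjusted p = 0.00079). A pair of brighter probe sets for the same gene, not members, had 48 h changes of 0.63 and 0.57 (LTH) and of -0.64 and -0.84 (IR29), the same signs with smaller sizes. Another changed by 1.48 in LTH and stayed at the floor of 16 in the IR29 control and at 48 h. The reference also lists rps14 as a name of this gene, and which transcript each probe set reads was not tested.

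CRYD encodes a DASH cryptochrome, a relative of the blue-light-driven DNA repair enzymes. It read 572, 299 and 580.5 at 24 h in LTH and 41.3, 39.3 and 35.4 in IR29, with no overlap, and LTH exceeded IR29 by 3.58 (SE 0.67, limma adjusted p = 0.00087). In IR29 the 3 recovery arrays read 29.4, 31.4 and 29.3, below 131, 115 and 125 in the control.

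A class IV aminotransferase gene (LOC_Os05g15530), of the family that includes the branched-chain amino acid aminotransferases, had a 48 h change of 3.06 in LTH. In LTH it read 33.7, 62.7 and 55.6 in the control, 201, 271 and 242 at 2 h, 319, 203 and 464 at 24 h, 439, 403 and 384 at 48 h and 49.04, 73.8 and 58.5 in recovery. In IR29 it read 38.9, 44.2 and 49.9 in the control, 23.4, 51.8 and 36.6 at 2 h, 10.1, 16.1 and 10.7 at 24 h, 9.94, 33.9 and 18.97 at 48 h and 151, 166 and 161 in recovery. LTH had returned close to its control in recovery, whereas every IR29 recovery array lay above all other IR29 arrays. The difference at 24 h was 4.28 (SE 0.29, limma adjusted p = 6.5e-09), the IR29 rise to recovery was 3.31 (SE 0.29, limma adjusted p = 6.3e-08), and the LTH change was lower than that in IR29, with a difference of -5.70 (SE 0.40, limma adjusted p = 2.3e-08). Its 48 h fall in IR29 was -1.02 with the floor of 16 and -0.44 with a floor of 32.

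An amino acid permease gene (LOC_Os04g35540) stood in LTH at 392, 359 and 204 at 48 h, above 32.1, 31.4 and 35.4 in the control. In IR29 it was 10.5, 23.7 and 21.9 at 24 h, 24.4, 44.4 and 13.5 at 48 h and 1004, 1100.3 and 973 in recovery, where all arrays lay above any LTH array. The rise from 24 h to recovery in IR29 was 5.66 (SE 0.64, limma adjusted p = 1.8e-06), and the LTH change was lower, with a difference of -5.64 (SE 0.91, limma adjusted p = 0.00021). IR29 2 h replicate 3, at 329 against 23.9 and 35.7 for its partners, stood apart for this gene.

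A tryptophan/tyrosine permease family gene (LOC_Os03g14910) differed from it in recovery. It read 35.5, 87.1 and 79.8 at 2 h, 215, 191 and 580.3 at 24 h and 15.5, 8.91 and 10.8 in recovery in LTH, and 17.7, 13.97 and 40.8 at 24 h and 9.64, 15.8 and 11.5 in recovery in IR29. All recovery arrays of both genotypes were below 16. The LTH rise from 2 to 24 h was 2.20 (SE 0.49, limma adjusted p = 0.0092) and the fall to recovery -4.17 (SE 0.49, limma adjusted p = 4.3e-06), a bound set by the floor.

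MatE proteins export organic compounds and toxins from cells or into vacuoles. The MatE member (LOC_Os03g08910) read 49.6, 56.4 and 54.5 on the LTH control arrays and 588, 388 and 592 on those of IR29. At 48 h LTH read 149, 254 and 142 and IR29 67.6, 118 and 107, with the order turned. In recovery LTH read 76.97, 81.9 and 80.00 and IR29 718, 583 and 677, the control order again without overlap, and an LTH minus IR29 difference of -3.04 (SE 0.34, limma adjusted p = 2.1e-06). The 24 h to recovery change was lower in LTH, with a difference of -4.46 (SE 0.48, limma adjusted p = 3e-06).

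MHX1, whose Arabidopsis counterpart exchanges magnesium and zinc for protons at the vacuolar membrane, was a member through 2 probe sets. One of them read 682, 425 and 593 at 24 h and 206, 172 and 179 in recovery in LTH. In IR29 it read 239, 274 and 197 at 24 h and 387, 472 and 377 in recovery, so the order of the genotypes was turned without overlap. The change was lower in LTH, with a difference of -2.39 (SE 0.35, limma adjusted p = 7.6e-05), and of -2.49 (SE 0.34, limma adjusted p = 4.3e-05) at the other. Of the 6 probe sets for CAX and MHX exchangers, 5 were called in that direction, these included.

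The ACT domain binds amino acids and regulates enzymes of their metabolism. An ACT domain gene (LOC_Os03g40100) was among the 12 members whose change between 2 and 24 h differed, with 149, 211 and 267 at 2 h and 612, 443 and 556 at 24 h in LTH. In IR29 it read 179, 182 and 157 at 2 h and 168, 120.2 and 147 at 24 h. LTH rose without overlap while the IR29 groups overlapped. The LTH difference was 1.39 (SE 0.22, limma adjusted p = 0.00076), and the change was higher in LTH by 1.65 (SE 0.32, limma adjusted p = 0.014).

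A gene tied to an NADPH:quinone oxidoreductase (Os01g0954000), an enzyme type that reduces quinones and limits their redox cycling, went in IR29 from 440.0, 479.6 and 511 to 38.5, 74.8 and 51.5 at 8 h and 59.5, 73.7 and 58.01 at 48 h, and read 454, 528 and 661 in recovery. In LTH it read 194, 411 and 307 in the control, 349.9, 583 and 543 at 8 h, 1144, 1149 and 835 at 48 h and 321, 370.2 and 239 in recovery. In recovery both genotypes overlapped with their controls. LTH exceeded IR29 at 8 h by 3.18 (SE 0.50, limma adjusted p = 0.00021), and the change to recovery was lower in LTH, with a difference of -4.33 (SE 0.70, limma adjusted p = 0.00022).

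A haloacid dehalogenase-like hydrolase (LOC_Os10g41940), of a large family of phosphatases and related enzymes, had the strongest IR29 fall of the named members. It went from 895, 709.7 and 1035 in the IR29 control to 110.0, 166 and 282 at 2 h and 29.7, 86.04 and 47.1 at 8 h, and was 676, 522 and 736 in recovery. In LTH it was 405, 563 and 469 in the control, 1479.8, 1245 and 1952 at 24 h and 285, 267 and 205 in recovery. It was 1 of the 14 members with both calls from 24 h to recovery, -2.62 (SE 0.52, limma adjusted p = 0.00081) in LTH and 2.52 (SE 0.52, limma adjusted p = 0.00091) in IR29. Its probe set is of a type (x_at) that can bind related transcripts.

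Cytochrome P450 enzymes hydroxylate hormones, lipids and defence compounds. The P450 member (Os03g0650200) was 30.1, 49.5 and 53.7 at 2 h, 407, 297 and 339 at 24 h, 1002, 1071 and 381 at 48 h and 43.6, 28.4 and 32.7 in recovery in LTH, so that the 24 h arrays lay above all 2 h and recovery arrays. The LTH difference from 2 to 24 h was 3.00 (SE 0.62, limma adjusted p = 0.0049) and that from 24 h to recovery -3.33 (SE 0.62, limma adjusted p = 0.00043). A member with a 2-oxoglutarate and iron oxygenase domain (Os06g0255100) exceeded IR29 at 24 h by 2.13 (SE 0.22, limma adjusted p = 1.8e-06), with 359, 186 and 315 against 64.7, 50.6 and 76.8. A limonoid UDP-glucosyltransferase-type gene (Os01g0686200), of enzymes that attach glucose to small molecules, fell in LTH from 136, 51.3 and 132 at 24 h to 10.5, 10.2 and 9.57 in recovery, with a difference of -2.60 (SE 0.45, limma adjusted p = 0.00025), a bound since all recovery arrays were below 16.

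OsAPRL1, an adenosine phosphosulfate reductase-like protein with a thioredoxin fold, read 27.8, 32.4 and 47.96 at 2 h, 89.95, 68.5 and 143 at 24 h and 9.85, 9.98 and 10.7 in recovery in LTH, and 11.03, 10.9 and 15.7 at 24 h in IR29. All values in LTH recovery and at 24 h in IR29 were below 16. The difference at 24 h, 2.58 (SE 0.31, limma adjusted p = 1e-05), is therefore a lower bound. A pair of brighter probe sets for OsAPRL1, not members, had 48 h changes of 0.62 and 1.04 (LTH) and of -0.70 and -0.71 (IR29). Like the member, both were called higher in LTH than IR29 at 24 h. Unlike it, neither was called in the genotype difference from 2 to 24 h or from 24 h to recovery. Both were called lower in recovery than at 24 h in IR29 and higher in LTH than IR29 in recovery, which the member was not.

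The NB-ARC domain is the nucleotide-binding switch of plant disease resistance proteins, and the NB-ARC member (LOC_Os11g12040) went in LTH from 11.6, 23.6 and 19.2 in the control to 282, 341 and 376 at 2 h, with no overlap. It was 117, 108 and 525 at 48 h and 20.7, 14.2 and 15.7 in recovery. In IR29 it was 86.2, 53.3 and 60.6 in the control, 18.3, 18.5 and 23.5 at 24 h and 14.5, 10.3 and 8.68 at 48 h, all of the last below 16. LTH exceeded IR29 at 24 h by 3.43 (SE 0.50, limma adjusted p = 8.7e-05) and fell to recovery by a difference of -3.62 (SE 0.50, limma adjusted p = 2.5e-05).

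BURP16, of a plant-specific family of secreted cell wall proteins, was above control at every chilling time in LTH, with 510.4, 407 and 423 in the control, 2724, 2647 and 3189 at 2 h, 871, 903 and 1204 at 48 h and 1613, 2176 and 2382 in recovery. In IR29 it was 665, 713 and 529.8 in the control, 951, 1193 and 894 at 2 h, 246, 346 and 343 at 48 h and 3219.9, 4064 and 3266 in recovery, so IR29 was first above and then below its control, and ended above LTH. The IR29 rise from 24 h to recovery was 2.85 (SE 0.18, limma adjusted p = 1.2e-09), and the change was lower in LTH, with a difference of -2.40 (SE 0.25, limma adjusted p = 2.3e-06). Of 8 BURP probe sets, 5 fell by at least 1 in LTH at 48 h and this was the only 1 to rise.

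CLPB1, the HSP101 disaggregase that rescues aggregated proteins after heat, varied widely within groups. It read 25.3, 28.3 and 15.6 in the LTH control, 9.89, 315 and 483 at 2 h and 57.1, 107 and 139 at 48 h, against 142, 137 and 166 in the control, 28.1, 155 and 421 at 2 h and 40.5, 54.3 and 143 at 48 h in IR29. The LTH replicates at 2 h spanned the range of all other LTH groups, and no limma comparison outside the rule was called for it.

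LOC_Os02g36590, described only as an expressed protein, showed the largest genotype difference in the change from 24 h to recovery among the named members. In LTH it read 260.5, 253 and 196 in the control, 231, 285 and 276 at 2 h, 501, 763 and 406 at 8 h, 1229.6, 721 and 1117 at 24 h, 1728, 1662 and 1474 at 48 h and 199, 168 and 137 in recovery. In IR29 it read 267, 216 and 427 in the control, 86.5, 90.8 and 62.2 at 2 h, 52.7, 60.05 and 52.5 at 8 h, 29.7, 53.8 and 53.7 at 24 h, 78.1, 217 and 44.02 at 48 h and 823, 1123 and 933 in recovery. From 2 h to 48 h every LTH array was above every IR29 array of the same time, and in recovery every IR29 array was above every LTH array. The change from 2 to 24 h was higher in LTH by 2.76 (SE 0.37, limma adjusted p = 0.0008). From 24 h to recovery LTH fell by a difference of -2.58 (SE 0.26, limma adjusted p = 8.4e-07), IR29 rose by 4.43 (SE 0.26, limma adjusted p = 6.7e-10), and the changes differed by -7.02 (SE 0.37, limma adjusted p = 6.2e-10).

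**Figure D5:**
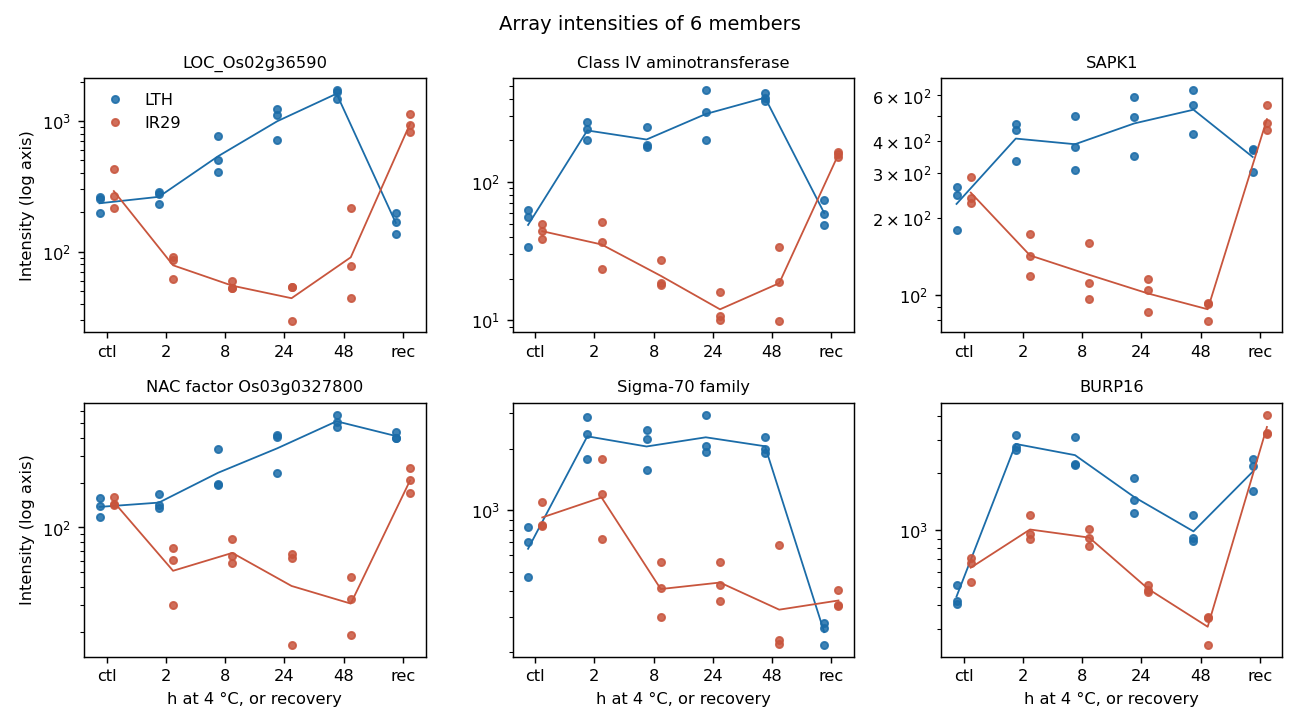
Intensity (log axis) of 6 members on all 36 arrays by group, with 1 point per array and lines through the geometric means: LOC_Os02g36590, the class IV aminotransferase, SAPK1, the NAC gene, the sigma-70 family gene and BURP16. In recovery the IR29 arrays of LOC_Os02g36590 lie between 823 and 1123 and the LTH arrays between 137 and 199.

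Further members chosen by the rule are given by single comparisons. LOC_Os08g08850, an expressed protein, read 418, 295 and 755 at 24 h and 5.59, 7.62 and 3.58 in recovery in LTH, and 10.02, 7.37 and 13.3 at 24 h in IR29. Both of the latter groups were below 16 on all arrays, so the difference at 24 h, 4.82 (SE 0.62, limma adjusted p = 2e-05), is a lower bound. LOC_Os01g02900, described as HGA6, read 143, 103 and 339 in LTH and 14.3, 32.3 and 35.7 in IR29 at 24 h, with no overlap, and its change to recovery was lower in LTH, with a difference of -4.42 (SE 0.70, limma adjusted p = 0.00017). LOC4351498 was a member through 2 probe sets, of which the brighter went in IR29 from 8.94, 15.3 and 24.9 at 24 h to 269.6, 177 and 273 in recovery, a difference of 3.67 (SE 0.77, limma adjusted p = 0.0011). A thioredoxin family gene (Os09g0559600), of the small proteins that reduce disulfides, read 74.9, 110.0 and 78.5 at 24 h in IR29. In recovery it read 33.5, 17.6 and 23.4, a difference of -1.85 (SE 0.38, limma adjusted p = 0.00088). Against control its IR29 change was -0.83 at 24 h, -1.795 at 48 h and -2.68 in recovery, so part of this fall came before rewarming.

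A member with no description, LOC4348134, ran the other way in level. It read 35.6, 29.2 and 19.3 in the LTH control and 134, 109 and 83.7 at 48 h, and in IR29 621, 512 and 679 in the control, 96.8, 413 and 97.3 at 48 h and 40.2, 36.5 and 38.7 in recovery. Every LTH control array was below every IR29 control array. LTH was below IR29 at 2 h by a difference of -4.33 (SE 0.42, limma adjusted p = 8.4e-07) and at 24 h of -2.44 (SE 0.42, limma adjusted p = 0.0004). It was 1 of the 2 members called lower in LTH at 24 h.

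Of the member genes, 17 had another probe set, and 5 genes had 2 or more member probe sets. Among the 21 further probe sets that were not members, 12 changed upward in LTH and downward in IR29 at 48 h by any amount (5.53% of all probe sets), and 2 were under 16 in every group. These values come from the arrays the rule used and are a description.

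Gene lists were matched by words in the tied descriptions and are not complete. Of all 2529 tied probe sets only 36 are members, so few would fall in any list by that share alone. Nothing is read from the counts below, and other lists that took in 0 members are not named. Of the 2529 probe sets tied to a description, the lists of photosynthesis and chlorophyll genes (30 probe sets), cytosolic and organelle ribosomal proteins (42), chaperones (38) and protein kinases and receptors (86) took in 0 members, although CLPB1 and SAPK1, which have no tied description, are members by symbol. The transporter list (97) took in 2 members, both permeases, and missed the MatE gene and a cation transport protein (LOC_Os06g48800). The amino acid metabolism list (28) took in 2, the aminotransferase and, by the word tryptophan, the tryptophan/tyrosine permease that the transporter list also holds. The cytochrome P450 list (26) took in 1. The glycosyltransferase list (18) took in 1 and missed a UDP-glucosyl transferase family gene (LOC_Os01g45110). The redox list (44), which held words such as thioredoxin, peroxidase and catalase, took in 1, the thioredoxin family gene, and neither the NADPH:quinone oxidoreductase nor the 2-oxoglutarate and iron oxygenase.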

How the data were processed

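Leaf RNA of 36 samples was hybridised to the Affymetrix rice genome array by the authors, who read signals out in GCOS and scaled the arrays in dChip. The deposited table holds the resulting intensity on a linear scale for 57258 probe sets, with no AFFX rows. The number of arrays limits the precision, since no read depth exists.

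Values under 16 were set to 16 and log2 was taken. The members and gene lists were chosen with earlier results of these data known. Tests used limma 3.58.1 in R 4.3.3 on the 24 arrays outside the rule: a linear model of 8 group means, eBayes with an intensity trend, and Benjamini-Hochberg adjustment over all probe sets, called at 0.05 and 2-fold. Printed levels are the deposited values without the floor. The fit was checked on simulated data. Tables were made with Python 3.11.15 and pandas 2.3.3.

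Genes came from the reference's probe annotation, and descriptions from the study's tables, matched by fold values (within 1.2%, at least 3 values, or 2 with the same chromosome). Where both sources gave a chromosome, 1702 of 1725 ties matched (98.7%). For tied genes a match with those tables holds by construction. Columns of the authors' own comparisons in those tables served only for this tie.

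The named members, 35 in all, were those with an annotated gene and the largest lesser change at 48 h without overlap (12), the largest called differences between 2 and 24 h (5) and between 24 h and recovery (6), up to 4 per gene list, transcription factors, kinases and phosphatases, and 6 with a gene symbol added after values were seen. The gene families were also chosen after the members were seen. Genes sharing near-identical copies may share signal.

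Alternatives were a floor of 1 or 32, quantile normalization, median centring, leaving out the 40% dimmest probe sets, the replicate block, all 36 arrays in the fit, no intensity trend, no fold minimum, the study's t-test and leaving out each array. Chosen after seeing the data were leaving out LTH 8 h replicate 3 with LTH 24 h replicate 2, and leaving out probe sets at the floor on most arrays. Promoter motifs planned for the members were not analysed here.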

Additional observations from a re-analysis of the deposited data

Results flagged for a closer look

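The change between 2 and 24 h of chilling differed between LTH and IR29 for 12 members by a limma test of the difference itself, each with a higher change in LTH. They include LOC_Os02g36590, the member probe set of OsAPRL1 and the ACT domain gene. The pair of brighter OsAPRL1 probe sets, not members, was not called in this difference. For the OsAPRL1 member the adjusted p by limma was 0.21 with a floor of 1. It was 0.05, no longer called, without IR29 2 h replicate 2. The IR29 24 h arrays of the member all lie under 16. The number depended on single arrays, from 5 to 30 when each array was left out in turn.

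The change between 24 h of chilling and recovery differed for 88 members with a lower change in LTH, and this number was 82 to 97 when each array was left out in turn. It was higher in LTH for 2 members. One has no described gene, and the other is LOC4348134 (log2 difference 2.04, limma adjusted p = 0.021). The adjusted p of LOC4348134 by limma was 0.061 without IR29 24 h replicate 2, 0.059 without IR29 24 h replicate 3, 0.057 without LTH 24 h replicate 2 and 0.062 without LTH recovery replicate 2.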

How the results depend on the processing

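Of 122 alternatives of the counts other than leaving out 1 array, 107 gave counts within 1.5 times. With a floor of 1 the rule itself gave 293 members in place of 134, the IR29 falls from 2 to 24 h numbered 17 in place of 10, and the differences between genotypes in that change 5 in place of 12. These differences numbered 6 after quantile normalization, 20 without the 40% dimmest probe sets and 44 without LTH 8 h replicate 3 and LTH 24 h replicate 2, where LTH rises numbered 29 in place of 18. With a floor of 32, 13 members in place of 20 were higher in LTH in recovery. The study's t-test was run on the same log2 values with Benjamini-Hochberg adjustment. It gave 0 LTH rises and 0 IR29 falls from 2 to 24 h. Over all probe sets it gave only 23 and 2, so nothing about the members is read from these 0 counts. LTH falls from 24 h to recovery numbered 40 in place of 75 (2245 of all probe sets). Members higher in LTH at 2, 8 and 24 h numbered 12, 35 and 45 in place of 53, 80 and 106. Of all probe sets 1309, 1299 and 1178 were so called. The study's unadjusted threshold was then used with a 2-fold difference of means. This difference stood in place of the lower-bound fold of dChip that the methods name, which was not computed here. The t-test then gave 20, 10, 72, 46, 81 and 109 members in the same order. Over all probe sets it gave 850, 626, 3525, 2459, 2593 and 2986. The cause of these shifts was not tested. Counts over all probe sets under the alternatives other than the t-test are not given here.

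With each array left out in turn, LTH rises from 2 to 24 h numbered 14 to 27, IR29 falls 3 to 24 and their difference 5 to 30. From 24 h to recovery LTH falls numbered 64 to 82, IR29 rises 47 to 50 and their difference 82 to 97. Members higher in LTH numbered 36 to 57 at 2 h, 58 to 78 at 8 h, 93 to 112 at 24 h and 16 to 19 in recovery, and the rule gave 114 to 185 members.

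By the study's methods both genotypes grew in the same plates, each plate a biological replicate, but no label ties a replicate number to a plate. The deviations of same-numbered arrays correlated at a median of 0.005 over 198 pairs, from -0.816 to 0.697, with 72 above 0.1, so the numbers were not taken to pair the samples. Whether arrays share plates in another order was not tested. With the replicate block the IR29 falls from 2 to 24 h numbered 16, the difference in that change 11 and the difference from 24 h to recovery 91. Of 152 called tests of named members, 118 were called under every alternative run for them, 34 were lost under at least 1 and 0 turned direction. The study's t-test and the setting with no fold minimum were not run for these single tests. Among the 48 h changes of the named members 0 turned direction under another floor, scaling or set of arrays. Values near the floor of 16 give only bounds, and the log2 values of 40.8% of probe sets are constant there over the 24 fitted arrays, which enters the spread that limma shares across probe sets.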
